A study of Saccharomyces cerevisiae with 103 samples.

Results

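The comparison described here is between budding yeast cells after 20 min and after 5 min in rich medium, both taken out of sporulation medium after 1 h. It rests on 8 of the 103 libraries of the series: 2 RNA-seq libraries and 2 libraries of poly(A) tags at 20 min, and the same at 5 min. They were chosen by their sample titles alone. All are from wild-type (WT) cells of SK1, a strain of Saccharomyces cerevisiae that sporulates fast and in step. The cells were put into sporulation medium (SPO), which starves them of glucose and nitrogen and starts meiosis, and were then moved to YPD, a rich medium with glucose, yeast extract and peptone. The groups used are 20 min in YPD after 1 h in SPO, 5 min in YPD after 1 h in SPO, cells after 1 h in SPO whose titles give no time in YPD (called 0 min here), and the same 3 times after 7 h in SPO, each with 2 libraries per assay, and every group shares the WT genotype and the SK1 strain. The labels do not say whether the 2 libraries of a group came from separate cultures, so a p-value here measures only the spread between these libraries. Tail lengths are used where they rest on at least 20 tags of a gene.

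Yeast cells that have started meiosis but have not committed to it can go back to mitotic growth when nutrients return, a switch known as return to growth. Glucose and amino acids act through protein kinase A and TORC1, which in growing yeast turn on the genes for ribosomal proteins and ribosome assembly and turn off genes for stress protection, use of poor carbon sources and entry into meiosis. A new mRNA leaves the nucleus with a long poly(A) tail bound by Pab1, and the tail is then shortened in the cytoplasm by the Ccr4-Pop2-Not and Pan2-Pan3 deadenylases before decapping by Dcp2 and digestion by the exonuclease Xrn1.

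The RNA-seq libraries held 2353080 and 4689131 counts at 20 min, against 1181547 and 1369445 counts at 5 min. The libraries of poly(A) tags held 1357096 and 627987 tags at 20 min, against 564369 and 836599 tags at 5 min. A mean tail with at least 20 tags was listed for 3290 and 2332 genes at 20 min, against 2964 and 3672 genes at 5 min. Expression is given as CPM, counts scaled to a common library total by TMM factors, so every change is relative to the other mRNAs of the library, and fewer cells of a kind and less RNA per cell cannot be told apart. The median of all genes itself moved with the scaling, from 0.24 on the log2 scale with TMM to 0.13 under RLE factors and -0.49 under library sizes alone, while the distance of each gene list from that median moved by at most 0.026. Genes with near-identical copies, among them most ribosomal protein pairs, TEF1 and TEF2, EFT1 and EFT2, HXT6 and HXT7, SSB1 and SSB2, and the histone pairs, can share or lose reads, and their values are uncertain.

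The meiotic label was checked with early meiotic genes. The RNA-seq level of IME1, the master activator of meiotic entry, was 871 and 642 CPM at 0 min, 61.6 and 59.9 CPM at 5 min, and 2.77 and 2.81 CPM at 20 min. IME2, the kinase that works downstream of it, had 901 and 719 CPM at 0 min, 83.7 and 113 CPM at 5 min, and 9.98 and 10.9 CPM at 20 min. The cells at 0 min thus held the mRNAs of meiotic entry, which were lower at each later time with no overlap between groups.

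Between 5 and 20 min the mRNA population moved broadly. Of 6109 genes tested, 2516 (41.2%) were higher at 20 min and 1647 (27.0%) were lower, by edgeR's quasi-likelihood test with Benjamini-Hochberg adjusted p under 0.05. The genes of ribosomes, translation, nucleotide synthesis, mitochondrial ribosomes and iron uptake lay highest among 40 gene lists. The genes of peroxisomal oxidation, gluconeogenesis, glycogen and trehalose, stress, poor nitrogen use and early meiosis lay lowest. The split between directions depended on the scaling: with library sizes alone 985 genes were higher and 2960 lower, and in a fit of the 6 libraries taken after 1 h in SPO it was 1801 higher and 2085 lower.

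**Figure D1:**
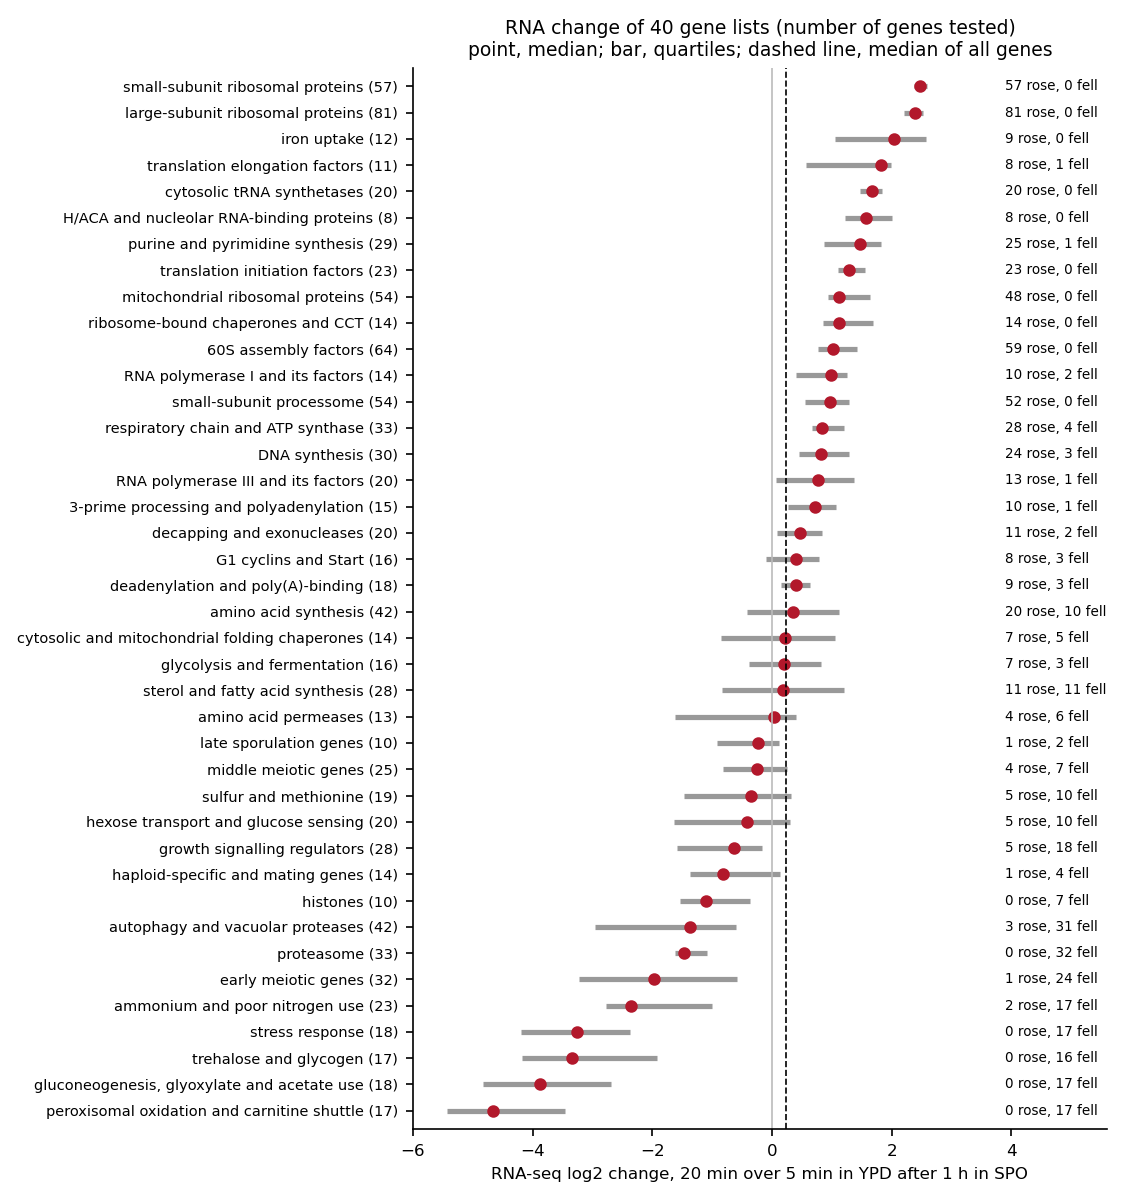
RNA-seq change, 20 against 5 min in YPD after 1 h in SPO, for 40 gene lists. Each point is the median log2 change over the list's tested genes and each line its quartiles, in 2 libraries per time. The dashed line marks the median of all genes, 0.24. Ribosomal protein genes have medians of 2.40 and 2.47 and peroxisomal genes -4.66.

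The genes of the ribosome itself rose together. All 81 tested genes of large-subunit proteins and all 57 of small-subunit proteins were higher at 20 min, with median log2 changes of 2.40 and 2.47, beside 0.24 over all genes, of which 41.2% were higher. Their summed share of all RNA-seq counts was 0.584% and 0.525% at 0 min, 8.49% and 8.54% at 5 min, and 26.3% and 26.1% at 20 min. Among the poly(A) tags the share was 1.09% and 1.06% at 0 min, 6.51% and 4.71% at 5 min, and 37.0% and 39.2% at 20 min, so in both assays the share at 20 min lay above every earlier library. RPS22B, a small-subunit protein gene, had 746 and 659 CPM at 20 min, against 83.0 and 61.6 CPM at 5 min, a log2 change of 3.29 ± 0.16 (SE, adjusted p = 1.64e-24, edgeR). RPL18B, a large-subunit protein gene, had 969.8 and 968 CPM at 20 min, against 119.7 and 122 CPM at 5 min, a log2 change of 3.0 ± 0.16 (adjusted p = 2.31e-23). ASC1, which encodes the ribosome-bound scaffold related to mammalian RACK1, had 4231 and 4754 CPM at 20 min, against 691 and 658 CPM at 5 min, a log2 change of 2.74 ± 0.17 (adjusted p = 9.06e-21). In each of these genes the 20 min libraries lay several-fold above the 5 min libraries and the groups did not overlap.

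Ribosome assembly genes had large changes before 5 min and rose further after it. Of 54 genes of the small-subunit processome, which cuts and folds the first pre-ribosomal RNA, 52 rose and none fell (median 0.98, beside a median of 5.53 from 0 to 5 min), and of 64 assembly factors of the large subunit 59 rose and none fell (median 1.02, beside 5.21 from 0 to 5 min). For the large-subunit and small-subunit ribosomal protein genes the medians from 0 to 5 min were 4.39 and 4.32. With library sizes alone 23 processome genes were higher and 8 lower, and 30 large-subunit assembly factors were higher and 6 lower. All 8 genes of H/ACA and nucleolar RNA-binding proteins rose (median 1.57). NOP56, a core protein of box C/D small nucleolar particles, had 2416 and 2397 CPM at 20 min, against 574 and 579.6 CPM at 5 min, a log2 change of 2.06 ± 0.16 (adjusted p = 2.48e-17, edgeR). NOG1, a GTPase of large-subunit assembly, had 1550.1 and 1499.6 CPM at 20 min, against 841 and 771 CPM at 5 min, a log2 change of 0.92 ± 0.15 (adjusted p = 3.32e-07). NSR1, a nucleolar protein of small-subunit assembly, had 3299 and 3398 CPM at 20 min and 2486 and 2024 CPM at 5 min, with 5.72 and 0.855 CPM at 0 min. Most of the NSR1 mRNA of 20 min was thus already there at 5 min, and its log2 change of 0.57 ± 0.16 (adjusted p = 0.00156) became -0.16 with library sizes alone. The largest change in these lists was in REA1, the AAA-type ATPase that remodels pre-60S particles, with 2160.3 and 1889.8 CPM at 20 min, against 307 and 201 CPM at 5 min, a log2 change of 3.0 ± 0.17 (adjusted p = 5.98e-22).

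The upstream windows of REA1, NOP56 and NOG1 are shown because assembly genes are known for 2 shared motifs, PAC and RRPE. Each window spans 200 bases, from 300 to 101 bases before the start codon, is written on the gene's strand from the R64 reference (sacCer3), and can hold part of a neighbouring gene. Capitals mark matches, on either strand, to GATGAG (PAC, complement CTCATC) and AAAATTT (RRPE, complement AAATTTT), and overlapping matches on both strands merge into AAAATTTT. They lie at chrXII:363839-364038 on the minus strand (REA1), chrXII:545797-545996 on the plus strand (NOP56) and chrXVI:370678-370877 on the plus strand (NOG1).
REA1: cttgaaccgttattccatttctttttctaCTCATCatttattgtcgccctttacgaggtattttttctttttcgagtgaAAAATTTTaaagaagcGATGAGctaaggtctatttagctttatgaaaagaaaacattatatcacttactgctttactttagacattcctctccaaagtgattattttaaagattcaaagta
NOP56: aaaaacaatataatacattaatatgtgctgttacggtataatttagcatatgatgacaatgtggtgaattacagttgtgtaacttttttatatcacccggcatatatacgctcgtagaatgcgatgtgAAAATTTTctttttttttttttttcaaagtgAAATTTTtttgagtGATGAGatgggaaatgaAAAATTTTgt
NOG1: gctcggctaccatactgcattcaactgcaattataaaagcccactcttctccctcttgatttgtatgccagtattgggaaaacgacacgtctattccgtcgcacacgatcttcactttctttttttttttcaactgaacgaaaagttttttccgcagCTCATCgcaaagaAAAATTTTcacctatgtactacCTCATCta
GATGAG was found in 13.8% of all 5985 such windows, in 57.4% of the 54 processome windows and in 62.5% of the 64 windows of large-subunit assembly factors. AAAATTT was found in 18.9% of all windows, in 77.8% of processome windows and in 85.9% of large-subunit assembly windows. Both motifs stood together in 4.80%, 53.7% and 59.4% of these windows.

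The polymerases that make ribosomal and transfer RNA followed in part. Of 14 genes of RNA polymerase I and its factors, 10 rose and 2 fell (median 1.00), and of 20 genes of RNA polymerase III and its factors, 13 rose and 1 fell (median 0.76), beside 41.2% higher and 27.0% lower over all genes. With library sizes alone the counts were 6 higher and 3 lower (median 0.26), and 8 higher and 6 lower (median 0.03). RPA190, the largest subunit of RNA polymerase I, had 2377 and 2312 CPM at 20 min, against 871 and 762 CPM at 5 min, a log2 change of 1.52 ± 0.15 (adjusted p = 5.88e-13, edgeR). RRN11, a subunit of the core factor that recruits RNA polymerase I, went the other way, with 120.3 and 129 CPM at 20 min, against 207 and 217 CPM at 5 min, a log2 change of -0.76 ± 0.17 (adjusted p = 0.00014).

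Most genes of the translation machinery rose. All 23 initiation factor genes (median 1.29) and all 20 cytosolic tRNA synthetase genes (median 1.67) were higher at 20 min, as were 8 of 11 elongation factor genes, with 1 lower (median 1.83). All 14 genes of ribosome-bound chaperones and the CCT chaperonin rose (median 1.12), of which 7 did so with library sizes alone. Under that scaling 17 initiation factor and 18 tRNA synthetase genes were higher and none lower. Of the elongation factor genes 7 were then higher and 3 lower. TEF1, the elongation factor that brings aminoacyl-tRNA to the ribosome, had 23684 and 25856 CPM at 20 min, against 6751 and 7002 CPM at 5 min, a log2 change of 1.85 ± 0.18 (adjusted p = 2.46e-13, edgeR). YEF3, the fungal elongation factor that frees the exit site, had 12868 and 12920.3 CPM at 20 min, against 3942 and 3947 CPM at 5 min, a log2 change of 1.71 ± 0.17 (adjusted p = 6.66e-13). HEF3, its paralog, was the elongation factor gene that fell under TMM scaling. It had 24.9 and 22.7 CPM at 20 min, against 543 and 654 CPM at 5 min, a log2 change of -4.66 ± 0.20 (adjusted p = 3.26e-27, edgeR). The pair was thus opposed: at 20 min YEF3 stood at its highest of the 3 times and HEF3, with 1394 and 1278 CPM at 0 min, at its lowest.

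Nucleotide synthesis genes rose almost throughout, while the counts of amino acid synthesis genes were near those over all genes (41.2% higher, 27.0% lower). Of 29 purine and pyrimidine genes 25 rose and 1 fell (median 1.46), whereas of 42 amino acid genes 20 rose and 10 fell (median 0.35, and -0.38 with library sizes alone), 6 of them falling when replicate 1 at 5 min was left out. ADE17, which carries out the last steps of purine synthesis, had 456 and 458 CPM at 20 min, against 93.4 and 42.7 CPM at 5 min, a log2 change of 2.78 ± 0.21 (adjusted p = 4.27e-12, edgeR). ARO4, a first-step enzyme of aromatic amino acid synthesis, had 1046 and 1060.0 CPM at 20 min, against 248 and 166 CPM at 5 min, a log2 change of 2.35 ± 0.18 (adjusted p = 2.96e-15). ARG4, the argininosuccinate lyase of arginine synthesis, went down and had 27.2 and 26.9 CPM at 20 min, against 253 and 131 CPM at 5 min, a log2 change of -2.81 ± 0.48 (adjusted p = 0.00136). GCN4, the activator of amino acid synthesis genes, had 2584 and 2572 CPM at 20 min, against 1835 and 1347 CPM at 5 min, a log2 change of 0.70 ± 0.16 (adjusted p = 0.000161) that was -0.03 with library sizes alone.

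The window upstream of ADE17, the purine or pyrimidine gene with the largest rise, is shown for the core of the site bound by Gcn4. It lies at chrXIII:509381-509580 on the minus strand, with the match to TGACTC in capitals.
ADE17: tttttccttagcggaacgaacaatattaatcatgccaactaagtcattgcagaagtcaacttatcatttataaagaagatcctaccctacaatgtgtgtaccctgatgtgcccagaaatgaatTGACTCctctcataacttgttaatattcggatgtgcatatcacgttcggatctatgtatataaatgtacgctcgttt
TGACTC, on either strand, was found in 5.85% of all 5985 windows, in 61.9% of the 42 amino acid synthesis windows and in 44.8% of the 29 purine and pyrimidine windows.

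By RNA-seq, mitochondrial genes rose while the enzymes of acetate use fell. Of 54 mitochondrial ribosomal protein genes 48 rose and none fell (median 1.13), and of 33 respiratory chain and ATP synthase genes 28 rose and 4 fell (median 0.84), with 20 higher and 3 lower, and 12 higher and 5 lower, under library sizes alone. ATP1, the alpha subunit of the mitochondrial ATP synthase, had 1134 and 1214 CPM at 0 min, 707 and 626 CPM at 5 min, and 2016 and 2153 CPM at 20 min, a log2 change from 5 to 20 min of 1.65 ± 0.16 (adjusted p = 1.15e-13, edgeR). SDH2, the iron-sulfur subunit of succinate dehydrogenase, was among the 4 that fell, with 66.5 and 132 CPM at 20 min, against 345 and 326 CPM at 5 min, a log2 change of -1.71 ± 0.19 (adjusted p = 1.86e-09). RPM2, the protein of mitochondrial RNase P, had 733 and 589 CPM at 0 min, 109 and 131 CPM at 5 min, and 1064 and 1118 CPM at 20 min. ATP1 and RPM2 both dipped at 5 min, below either of the other times. Poly(A) tags did not show these list-wide rises. By tags 6 of 33 respiratory genes and 8 of 49 mitochondrial ribosomal protein genes were higher, beside 21.2% over all genes.

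The largest falls were in the enzymes that let cells live on acetate and fat. All 17 genes of peroxisomal oxidation and the carnitine shuttle fell (median -4.66), as did 17 of 18 genes of gluconeogenesis, the glyoxylate cycle and acetate use (median -3.88) and 16 of 17 genes of trehalose and glycogen metabolism (median -3.33), beside 27.0% of all genes. The gluconeogenic list held 9.56% and 8.12% of RNA-seq counts at 0 min, 2.34% and 2.13% at 5 min, and 0.0739% and 0.0807% at 20 min. ACS1, the acetyl-CoA synthetase used on acetate, had 22.7 and 24.4 CPM at 20 min, against 2793 and 2537 CPM at 5 min, a log2 change of -6.81 ± 0.23 (adjusted p = 2.02e-31, edgeR). ADY2, the acetate transporter, had 25.5 and 26.1 CPM at 20 min, against 2381 and 2177 CPM at 5 min, a log2 change of -6.46 ± 0.24 (adjusted p = 9.32e-30). CIT3, a mitochondrial citrate and methylcitrate synthase, had 13.3 and 8.42 CPM at 20 min, against 1257 and 1140.2 CPM at 5 min, a log2 change of -6.86 ± 0.25 (adjusted p = 9.38e-29). GSY2, the main glycogen synthase, had 3.88 and 5.61 CPM at 20 min, against 264 and 302 CPM at 5 min, a log2 change of -5.80 ± 0.23 (adjusted p = 6.11e-29). All of these mRNAs had been higher still at 0 min.

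Sugar uptake and glycolysis genes changed in both directions, as did all genes (41.2% higher, 27.0% lower). Of 20 genes of hexose transport and glucose sensing 5 rose and 10 fell (median -0.42), and of 16 genes of glycolysis and fermentation 7 rose and 3 fell (median 0.20, and -0.53 with library sizes alone). PDC1, the main pyruvate decarboxylase, had 4679.6 and 3928 CPM at 20 min, against 591 and 503 CPM at 5 min, a log2 change of 2.98 ± 0.24 (adjusted p = 1.04e-09, edgeR). ENO1, the enolase isozyme, fell to 62.6 and 83.9 CPM at 20 min, against 352 and 558 CPM at 5 min, a log2 change of -2.61 ± 0.27 (adjusted p = 1.17e-06). HXT1, the low-affinity transporter for plentiful glucose, had 525 and 612 CPM at 20 min, against 157 and 127 CPM at 5 min, a log2 change of 2.01 ± 0.16 (adjusted p = 8.98e-17). HXT5, a transporter of slow-growing cells, had 9.42 and 10.7 CPM at 20 min, against 638 and 740.4 CPM at 5 min, a log2 change of -6.07 ± 0.23 (adjusted p = 9.32e-30).

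Stress genes and the 2 main routes of protein turnover fell together, beside 27.0% lower over all genes. Of 18 stress response genes 17 fell (median -3.26), of 33 proteasome genes 32 fell (median -1.46), and of 42 genes of autophagy and vacuolar proteases 31 fell and 3 rose (median -1.36), where only 1 rose without replicate 2 at 20 min or without replicate 1 at 5 min. DDR2, a multistress response gene, had 8.31 and 7.58 CPM at 20 min, against 1035 and 729 CPM at 5 min, a log2 change of -6.79 ± 0.25 (adjusted p = 3.9e-30, edgeR). ATG8, the ubiquitin-like protein of the autophagosome membrane, had 6.10 and 6.18 CPM at 20 min, against 207 and 212 CPM at 5 min, a log2 change of -5.07 ± 0.25 (adjusted p = 1.19e-24). PRE10, an alpha subunit of the proteasome core, had 25.5 and 32.6 CPM at 20 min, against 233 and 233 CPM at 5 min, a log2 change of -2.96 ± 0.18 (adjusted p = 2.15e-21). Folding chaperones moved both ways, as did all genes (41.2% higher, 27.0% lower). SSC1, the mitochondrial Hsp70, had 566 and 542 CPM at 20 min and 162 and 175 CPM at 5 min, a log2 change of 1.72 ± 0.15 (adjusted p = 2.24e-15). SSA1, a cytosolic Hsp70, had 49.9 and 62.6 CPM at 20 min and 329 and 370.5 CPM at 5 min, a log2 change of -2.62 ± 0.17 (adjusted p = 1.03e-19). In that list of 14 genes 7 rose and 5 fell, with a median of 0.22 that was -0.52 with library sizes alone.

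The window upstream of DDR2, the stress gene with the largest fall, is shown for the stress response element AGGGG, the site of Msn2 and Msn4. It lies at chrXV:231856-232055 on the minus strand, and capitals mark the 3 matches, all to the complement CCCCT.
DDR2: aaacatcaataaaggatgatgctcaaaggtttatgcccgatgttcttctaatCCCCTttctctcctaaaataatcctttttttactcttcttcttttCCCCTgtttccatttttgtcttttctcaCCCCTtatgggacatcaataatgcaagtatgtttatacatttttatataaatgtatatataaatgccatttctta
AGGGG, on either strand, was found in 16.3% of all 5985 windows, in 72.2% of the 18 stress response windows and in 58.8% of the 17 windows of trehalose and glycogen genes.

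The meiotic programme was lower at 20 min in its early class. Counts are set beside 41.2% higher and 27.0% lower over all genes, and only the early list lay well above the latter share. Of 33 early meiotic genes 32 passed the filter on low counts, of which 24 fell and 1 rose (median -1.96). Their summed level was 372 and 390 CPM at 20 min, against 1192 and 1276 CPM at 5 min, and it had been 6780 and 5649 CPM at 0 min. DMC1, the meiosis-specific recombinase, had 1101 and 868 CPM at 0 min, 196 and 199 CPM at 5 min, and 4.43 and 2.81 CPM at 20 min, a log2 change from 5 to 20 min of -5.83 ± 0.26 (adjusted p = 6.74e-27, edgeR). IME1 changed by -4.40 ± 0.31 over the same step (adjusted p = 2.86e-18) and IME2 by -3.21 ± 0.24 (adjusted p = 1.13e-17). CST9, a SUMO ligase of meiotic crossover sites, was the early gene that rose, with 101 and 102 CPM at 20 min, against 34.6 and 33.8 CPM at 5 min. Of 25 middle genes, which act in the meiotic divisions, 4 rose and 7 fell (median -0.25), and their summed level was 280.4 and 299 CPM at 20 min, against 316 and 391 CPM at 5 min. Of 10 late sporulation genes 1 rose and 2 fell (median -0.24), with summed levels of 26.6 and 35.9 CPM at 20 min, against 106 and 106 CPM at 5 min. Of 14 haploid-specific and mating genes 1 rose and 4 fell, and the list summed to 71.5 and 73.0 CPM at 20 min, against 116 and 112 CPM at 5 min, with RME1 and MFA2 at 0 in both 20 min libraries and no member at 0 in both 5 min libraries. The part of such cells in any result was not tested.

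The window upstream of DMC1, the early meiotic gene with the largest fall, is shown for the core of URS1, the element bound by Ume6. It lies at chrV:548121-548320 on the plus strand, and capitals mark the match to the complement GCCGCC.
DMC1: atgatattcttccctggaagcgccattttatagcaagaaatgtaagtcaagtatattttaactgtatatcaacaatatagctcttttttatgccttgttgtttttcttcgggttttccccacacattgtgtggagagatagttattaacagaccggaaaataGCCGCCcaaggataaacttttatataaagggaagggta
GGCGGC, on either strand, was found in 4.06% of all 5985 windows and in 30.3% of the 33 early meiotic windows.

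Nitrogen and metal uptake changed in opposite directions, with counts set beside 41.2% higher and 27.0% lower over all genes. Of 23 genes for ammonium and poor nitrogen sources 17 fell and 2 rose (median -2.36), with none rising when replicate 2 at 5 min was left out, while of 12 iron uptake genes 9 rose and none fell (median 2.03). With library sizes alone 9 iron uptake genes were higher and 3 lower, and by poly(A) tags 9 of 11 were higher and 1 lower. MEP2, an ammonium permease, had 16.6 and 12.1 CPM at 20 min, against 225 and 182 CPM at 5 min, a log2 change of -3.87 ± 0.21 (adjusted p = 1.77e-23, edgeR). FIT1, a cell wall protein that retains iron-binding siderophores, had 1267 and 1284 CPM at 20 min, against 63.7 and 48.8 CPM at 5 min, a log2 change of 4.51 ± 0.18 (adjusted p = 8.97e-29). Among 13 amino acid permeases 4 rose and 6 fell, with a median of 0.03 that reversed to -0.08 under RLE factors and to -0.70 under library sizes alone. TAT1, a permease for branched-chain amino acids and tyrosine, had 837 and 805 CPM at 20 min, against 45.7 and 25.5 CPM at 5 min, a log2 change of 4.55 ± 0.20 (adjusted p = 3.27e-24). GAP1, the general amino acid permease of poor nitrogen medium, had 18.3 and 15.4 CPM at 20 min, against 290.0 and 242 CPM at 5 min, a log2 change of -4.00 ± 0.20 (adjusted p = 4.02e-24). Sulfur metabolism fell in 10 of 19 genes and rose in 5, or in 3 without replicate 2 at 20 min. MET6, the methionine synthase, had 53.2 and 60.6 CPM at 20 min, against 869.9 and 689.9 CPM at 5 min, a log2 change of -3.76 ± 0.18 (adjusted p = 1.13e-25). SAM4, a homocysteine methyltransferase named by the size of its own rise and not in that list, had 670.0 and 659 CPM at 20 min, against 60.2 and 52.7 CPM at 5 min, a log2 change of 3.56 ± 0.18 (adjusted p = 8.63e-25).

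Counts for regulators of growth and the cell cycle are set beside 41.2% higher and 27.0% lower over all genes. Of 28 growth signalling genes 18 fell and 5 rose (median -0.63), or 2 rose without replicate 1 at 20 min. TPK2, a catalytic subunit of protein kinase A, had 2.77 and 1.97 CPM at 20 min, against 74.7 and 66.6 CPM at 5 min. TPK3, which encodes another, had 80.4 and 75 CPM at 20 min, against 28.4 and 31.6 CPM at 5 min, and both changes passed the test in opposite directions. Of 30 DNA synthesis genes 24 rose and 3 fell (median 0.82), and with library sizes alone 10 were higher and 6 lower (median 0.08). By poly(A) tags 4 of 28 were higher and 3 lower, beside 21.2% higher and 19.2% lower over all genes. RNR1, the large subunit of ribonucleotide reductase, had 503 and 424 CPM at 20 min, against 116 and 109 CPM at 5 min, a log2 change of 2.04 ± 0.16 (adjusted p = 2.47e-16, edgeR). Of 10 histone genes 7 fell and none rose (median -1.10). HHT2, a histone H3 gene, had 77.6 and 70.2 CPM at 20 min, against 315 and 268 CPM at 5 min, a log2 change of -1.98 ± 0.16 (adjusted p = 2.01e-16). Of 16 genes of the G1 cyclins and Start 8 rose and 3 fell, with a median of 0.41 that was -0.33 with library sizes alone. In that list 5 rose without replicate 1 at 20 min, 4 rose without replicate 2 at 5 min, and 1 fell without replicate 2 at 20 min. ACGCGT, the MCB site of DNA synthesis genes, was found on either strand in 2.92% of all 5985 windows. It stood in 46.7% of the 30 DNA synthesis windows and in 0 of the 16 windows of G1 cyclins and Start. CGCGAAA, the SCB core, also looked up for the G1 list, was found in 3.34% of all windows and in 1 of those 16.

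The genes whose products act on the tails are given beside 41.2% higher and 27.0% lower over all genes. Of 18 genes of deadenylation and poly(A) binding 9 rose and 3 fell (median 0.40), of 20 genes of decapping and exonucleases 11 rose and 2 fell (median 0.46), and of 15 genes of 3′-end processing and polyadenylation 10 rose and 1 fell (median 0.71). These medians were -0.34, -0.27 and -0.02 with library sizes alone, and 7 decapping and exonuclease genes rose without replicate 2 at 20 min. PAB1, the poly(A)-binding protein, had 2771 and 2679 CPM at 20 min, against 1286 and 1036 CPM at 5 min, a log2 change of 1.23 ± 0.15 (adjusted p = 5.56e-10, edgeR). CCR4, the catalytic deadenylase subunit, had 206 and 202 CPM at 20 min, against 134 and 136 CPM at 5 min, a log2 change of 0.59 ± 0.15 (adjusted p = 0.000543) that was -0.14 with library sizes alone. XRN1 had 118 and 121 CPM at 20 min, against 179.9 and 182 CPM at 5 min, a log2 change of -0.60 ± 0.15 (adjusted p = 0.000603). EDC2, an enhancer of decapping, had 35.4 and 40.2 CPM at 0 min, 102 and 96.5 CPM at 5 min, and 15.5 and 15.7 CPM at 20 min.

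Some of the named genes had their highest level at 5 min. SRX1, the sulfiredoxin that repairs peroxiredoxins, had 26.3 and 22.2 CPM at 0 min, 362 and 294 CPM at 5 min, and 4.43 and 7.86 CPM at 20 min. GPP1, a glycerol phosphatase, had 218 and 179 CPM at 0 min, 2909 and 2345 CPM at 5 min, and 979.8 and 923 CPM at 20 min. HXT6, a high-affinity glucose transporter, had 65.7 and 177 CPM at 0 min, 359.9 and 335 CPM at 5 min, and 18.3 and 21.6 CPM at 20 min. The step from 5 to 20 min passed the test in each, with log2 changes of -5.61 ± 0.24 for SRX1 (adjusted p = 1.95e-27, edgeR), -1.47 ± 0.15 for GPP1 (adjusted p = 3.41e-12) and -4.09 ± 0.44 for HXT6 (adjusted p = 7.01e-05). Other mRNAs were nearly gone by 20 min. PHO92, a YTH-domain protein that binds methylated adenosine, had no count at 20 min and 164 counts at 5 min, at least 90.3-fold lower against a floor of 3 counts over the group. LEE1, a zinc-finger protein gene, had 1 count at 20 min and 183 at 5 min, a ratio of 302 for 5 over 20 min after scaling with an exact 95% counting interval of 53.6 to 12007. Such intervals and floors cover counting error only.

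**Figure D2:**
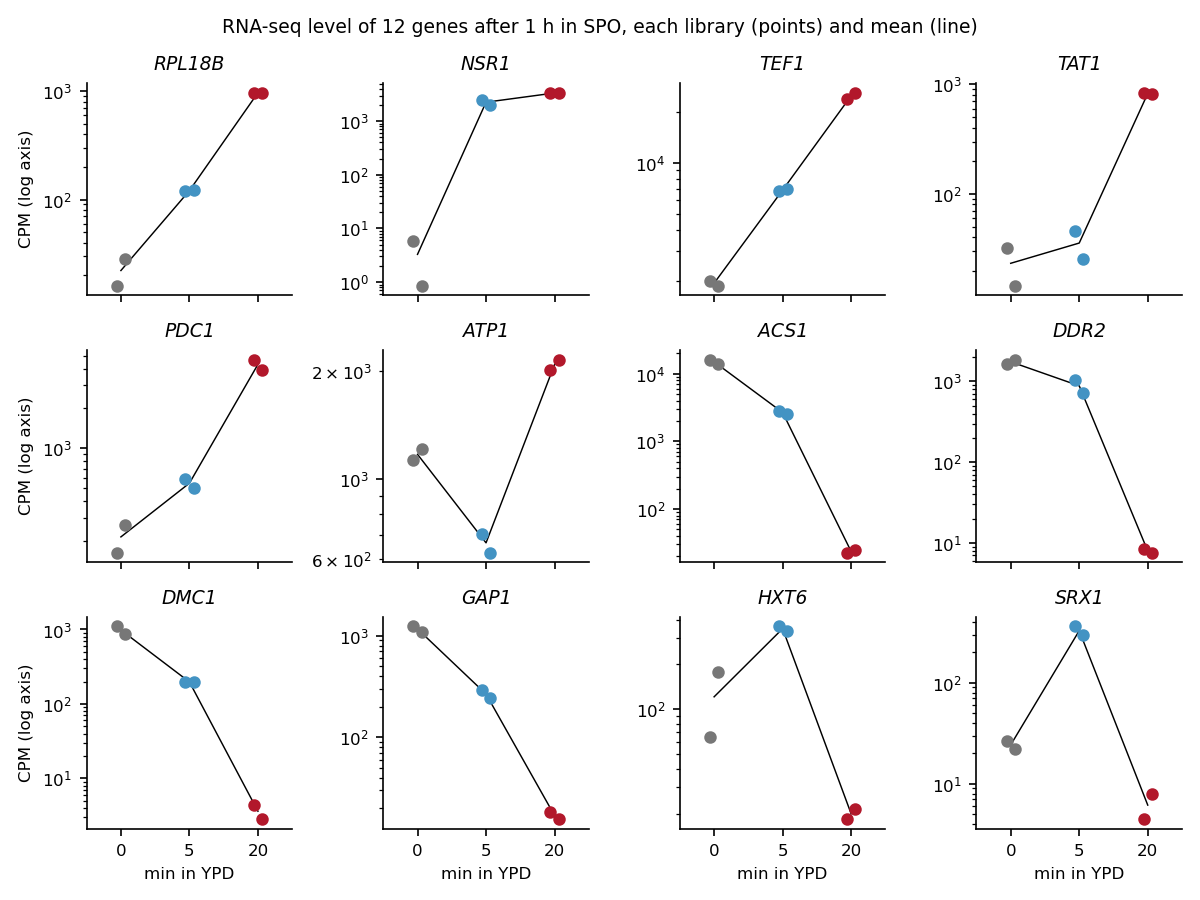
RNA-seq level of 12 named genes in each library at 0, 5 and 20 min in YPD after 1 h in SPO, on a log CPM axis. Each point is 1 library and each line joins group means. RPL18B reaches 969.8 and 968 CPM at 20 min and ACS1 drops to 22.7 and 24.4 CPM, while SRX1 is highest at 5 min with 362 and 294 CPM and ATP1 lowest there with 707 and 626 CPM.

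The poly(A) tags gave a second count of each mRNA from separate libraries. Of 5232 genes tested by tag counts, 1109 (21.2%) were higher at 20 min and 1006 (19.2%) lower. Among 5161 genes tested in both assays, RNA-seq called 2207 higher and 1460 lower. Of these, 1023 rose in both and 859 fell in both, while 16 rose in RNA-seq and fell in tags and 8 did the reverse. Across all 5161 genes the log2 changes of the assays had Spearman's rho = 0.79, over genes that share libraries and are not independent replicates. Ribosomal protein genes rose in all 138 cases by tags as well, with median log2 changes of 3.65 for the large and 3.71 for the small subunit. The respiratory genes did not rise as a group by tags, where 6 of 33 were higher and 4 lower, and of 49 mitochondrial ribosomal protein genes tested by tags 8 were higher and none lower. Nor did DNA synthesis genes, with 4 of 28 higher by tags and 3 lower. For 3′-end processing and polyadenylation 1 of 14 was higher by tags and none lower.

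Mean tail length was tested for 1964 genes with at least 20 tags in all 4 libraries. With limma, 147 genes (7.48%) had longer tails at 20 min and 285 (14.5%) had shorter tails, at adjusted p under 0.05. The median over these genes in each library was 31.0 and 28.2 nt at 20 min, against 29.0 and 26.4 nt at 5 min, a difference of 1.87 nt that did not pass the exact two-sided permutation test (p = 0.667, where 0.333 is the smallest p that 2 against 2 libraries can give). The groups overlapped, and the libraries of a group differed by more than the groups did. The counts of genes depended on single libraries: without replicate 1 at 20 min 32 were longer and 197 shorter, without replicate 2 at 20 min 134 and 133, without replicate 1 at 5 min 80 and 162, and without replicate 2 at 5 min 34 and 235. In all 4 of these fits 17 genes were longer and 121 shorter.

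**Figure D3:**
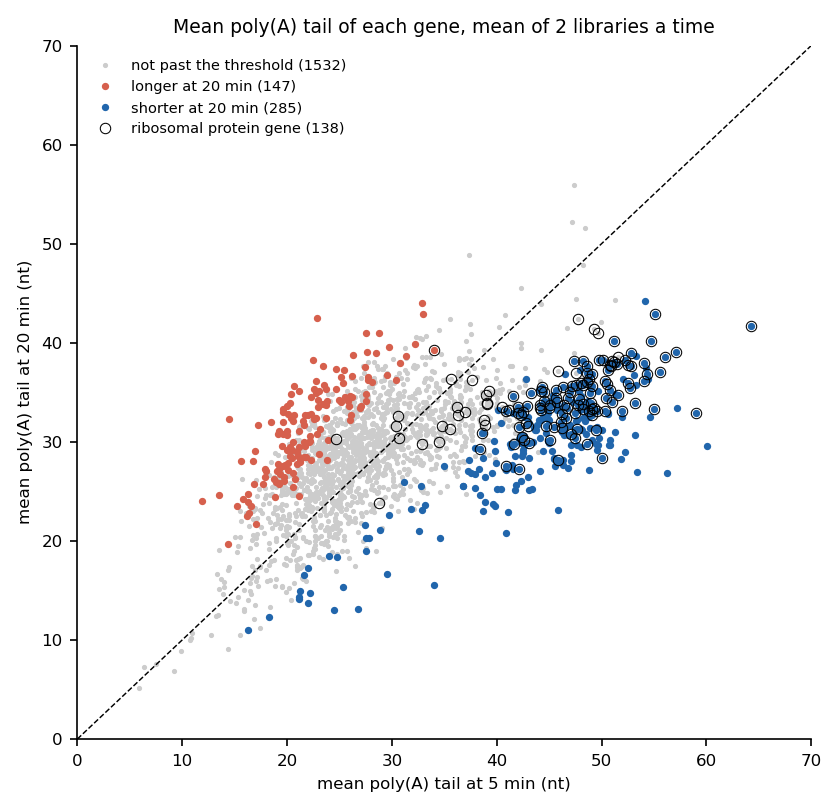
Mean tail length of 1964 genes at 20 min (vertical axis, nt) against 5 min (horizontal axis, nt) in YPD after 1 h in SPO, each the mean of 2 libraries. Of these genes 147 were longer and 285 shorter at 20 min by limma, and 138 ribosomal protein genes are marked. Most marked genes lie below the diagonal, 103 of them shorter by limma.

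Many mRNAs of ribosome production had shorter tails at 20 min, and so did mRNAs of some other lists. Of 138 ribosomal protein genes 103 had shorter tails at 20 min and 1 a longer tail, with a median change of -12.3 nt beside 0.41 nt over all tested genes, of which 14.5% were shorter. A set of 136 of them had at least 20 tags in all 8 libraries at 5 and 20 min after 1 h and 7 h. Their median tail was 47.0 and 46.3 nt at 5 min and 35.3 and 32.9 nt at 20 min. At 0 min it was 23.8 and 24.0 nt, over only those with at least 20 tags there. These medians were thus longest at 5 min and at 20 min lay between the other times in each library, with fewer genes possible at 0 min. Without replicate 2 at 20 min 60 of the 138 were shorter. Of 42 large-subunit assembly factors 19 were shorter (median -10.9 nt), with 9 without replicate 1 and 4 without replicate 2 at 20 min, and 8 without replicate 1 and 12 without replicate 2 at 5 min. Of 20 initiation factor genes 9 were shorter (median -9.04 nt), with 5 without replicate 2 at 20 min and 6 without replicate 1 at 5 min. Of 31 processome genes 7 were shorter (median -5.39 nt), with 2 without replicate 2 at 20 min and 4 without replicate 1 of either time. Of 19 purine and pyrimidine genes 8 were shorter (median -7.05 nt), with 4 without replicate 1 and 3 without replicate 2 at 20 min, and 5 without replicate 1 at 5 min. On a log2 scale of tail length the counts of shorter tails were 60 ribosomal protein genes, 5 large-subunit assembly factors, 5 initiation factors, 5 processome genes and 4 purine and pyrimidine genes. Of 11 elongation factor genes 5 were shorter, and of 8 sulfur and methionine genes 4 were shorter, or 2 without either replicate at 20 min or replicate 1 at 5 min. No member of these 6 lists had a longer tail at 20 min in the fit of all libraries.

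Respiratory genes had tail changes in the other direction. Of 32 respiratory chain and ATP synthase genes 11 had longer tails at 20 min and none shorter (median 6.39 nt), beside 7.48% of all genes. That count was 1 without replicate 1 at 20 min, 8 without replicate 2 at 20 min, 7 without replicate 1 at 5 min and 3 without replicate 2 at 5 min. Of 8 mitochondrial ribosomal protein genes with a tail test none was longer and none shorter (median 4.77 nt). ATP1 had tails of 28.6 and 26.0 nt at 20 min, against 20.5 and 18.1 nt at 5 min, a change of 7.99 ± 2.10 nt (SE, adjusted p = 0.0138, limma). Of 17 proteasome genes 3 were longer and none shorter (median 5.38 nt), but none was longer when either 5 min library was left out or on a log2 scale, and 1 was longer and 1 shorter without replicate 1 at 20 min.

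Single genes showed how large these shifts could be. NOG1, which as an mRNA rose, had tails of 28.2 and 25.5 nt at 20 min, against 57.8 and 54.7 nt at 5 min, a change of -29.5 ± 2.67 nt (SE, adjusted p = 8.76e-06, limma). ANB1, an isoform of the translation factor eIF5A, had the largest shortening, with 30.1 and 29.0 nt at 20 min, against 56.2 and 63.8 nt at 5 min (-30.4 ± 3.95 nt, adjusted p = 0.000247). NEW1, an ATPase related to Yef3, had 23.5 and 22.8 nt at 20 min, against 46.9 and 44.7 nt at 5 min (-22.6 ± 2.44 nt, adjusted p = 5.51e-05), while its RNA-seq level was 1029 and 1046 CPM at 20 min and 1009 and 985 CPM at 5 min. A tail could thus be much shorter where the amount of mRNA, under TMM scaling, had not passed the test of a change. With library sizes alone the RNA-seq change of NEW1 reversed to a fall. RPL17B, a large-subunit protein gene, had 43.5 and 39.9 nt at 20 min, against 62.6 and 65.9 nt at 5 min (-22.5 ± 3.89 nt, adjusted p = 0.00148). PAB1 had 33.8 and 32.4 nt at 20 min, against 44.0 and 37.8 nt at 5 min (-7.77 ± 2.01 nt, adjusted p = 0.0127). The 20 min values of all 5 genes lay below the lower 5 min value.

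The 2 largest single gains among the named genes were in FIT3 and FIT1, the iron uptake genes with longer tails out of 8 tested. FIT3, a cell wall protein of siderophore retention like FIT1, had tails of 43.1 and 42.0 nt at 20 min, against 23.8 and 21.9 nt at 5 min, a change of 19.7 ± 1.91 nt (SE, adjusted p = 1.54e-05, limma), while its RNA-seq level did not pass the test (621 and 684 CPM at 20 min, 688 and 466 CPM at 5 min, adjusted p = 0.302, edgeR). FIT1 had 33.9 and 30.6 nt at 20 min, against 14.7 and 14.2 nt at 5 min (17.8 ± 3.17 nt, adjusted p = 0.00134), and its mRNA rose as given above. XRN1 had 36.5 and 35.1 nt at 20 min, against 24.3 and 22.7 nt at 5 min (12.3 ± 2.96 nt, adjusted p = 0.00862), although its mRNA fell. TAT1 had 32.1 and 29.3 nt at 20 min, against 20.1 and 19.9 nt at 5 min (10.8 ± 3.23 nt, adjusted p = 0.0278). Tail gains therefore occurred in mRNAs that, under TMM scaling, rose, fell or did not pass the test of a change. The RNA-seq change of FIT3 reversed to a fall with library sizes alone. Over the 1958 genes with both measures, tail change and RNA-seq change had Spearman's rho = -0.19, as a description across genes that share the same libraries.

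The tail at 20 min was also set out by what each mRNA had done in the first 5 min. The class of a gene came from its RNA-seq change from 0 to 5 min in RNA-seq libraries, while tails come from the tag libraries. The labels do not say whether both kinds of library came from the same cultures. Of 245 genes whose mRNA had risen by over 4 on the log2 scale, 147 had shorter tails at 20 min and none longer (median change -12.5 nt). Of 276 genes that had risen by 2 to 4, 95 were shorter and 1 longer (median -6.60 nt). Of 567 genes that had risen by 0 to 2, 23 were longer and 28 shorter (median 0.85 nt). Of 832 genes that had fallen by 0 to 2, 114 were longer and 13 shorter (median 2.97 nt), and of 38 that had fallen by over 2, 9 were longer and 2 shorter (median 2.78 nt). Calls of shorter tails thus outnumbered longer ones in both classes with the strongest early rise, and longer ones outnumbered shorter in both classes that fell. In the class with the strongest early rise 113 were shorter without replicate 1 and 80 without replicate 2 at 20 min, 97 without replicate 1 and 125 without replicate 2 at 5 min, and 90 on a log2 scale. In the class that rose by 2 to 4 the counts were 60, 36, 50, 76 and 44 in the same order. Centring on library medians gave 109 longer and 80 shorter among genes that had fallen by 0 to 2, and 8 longer and 7 shorter among those that had fallen by over 2. For the last class leaving out libraries gave 5 longer without replicate 1 at 20 min and 4 without either replicate at 5 min. Among genes that had fallen by 0 to 2, leaving out libraries gave 24 longer without replicate 1 at 20 min, 101 without replicate 2 at 20 min, 65 without replicate 1 at 5 min and 25 without replicate 2 at 5 min. The median tail of the class with the strongest rise was 33.7 and 30.6 nt at 20 min, against 45.2 and 43.3 nt at 5 min.

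**Figure D4:**
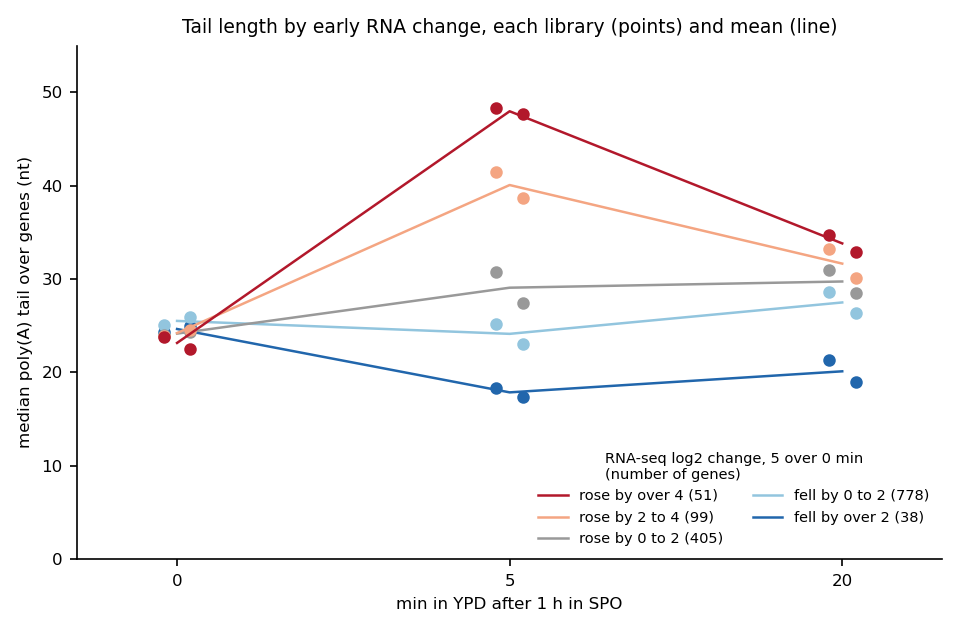
Median tail length (nt) in each library of poly(A) tags at 0, 5 and 20 min in YPD after 1 h in SPO, for genes with at least 20 tags in all 6 libraries, split by their RNA-seq change from 0 to 5 min (51, 99, 405, 778 and 38 genes from strongest rise to strongest fall). The class that rose by over 4 peaks at 48.3 and 47.6 nt at 5 min, with 34.7 and 32.9 nt at 20 min, and the class that fell by over 2 is lowest at 5 min with 18.3 and 17.4 nt.

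The same step after 7 h in SPO, when cells are further into meiosis, is the comparison most like this. There 982 genes (16.1%) were higher and 905 (14.8%) lower at 20 min, and the difference between the steps after 1 h and after 7 h, an interaction term in the same edgeR model, was positive for 2031 genes (33.2%) and negative for 1682 (27.5%). By tag counts it was positive for 1077 genes (20.6%) and negative for 980 (18.7%). The libraries labelled 20 min after 7 h mostly lay between those at 0 and 5 min: of 2252 genes at least 2-fold apart between 0 and 5 min after 7 h, 1900 (84.4%) had their 20 min mean between the other times, against 816 of 3053 (26.7%) after 1 h. In tags this held for 1459 of 1803 genes (80.9%) after 7 h and 423 of 1747 (24.2%) after 1 h. What sets the libraries of 7 h apart, their labels included, was not tested, and the direction of each difference from the step after 7 h rests on those labels.

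The steps ran in opposite directions for many lists. Ribosomal protein genes had medians of 2.40 and 2.47 after 1 h and -1.61 and -1.67 after 7 h, and the difference was positive in all 138. Their share of RNA-seq counts after 7 h was 0.650% and 0.867% at 0 min, 9.42% and 8.73% at 5 min, and 2.82% and 2.83% at 20 min, beside 8.49% and 8.54% at 5 min and 26.3% and 26.1% at 20 min after 1 h. The gluconeogenic list had a median of -3.88 after 1 h and 0.47 after 7 h, with a negative difference in 17 of 18 genes. The early meiotic list had medians of -1.96 after 1 h and 1.25 after 7 h, with a negative difference in 29 of 32 genes and a positive one in 1. DMC1 had 4.43 and 2.81 CPM at 20 min after 1 h, against 155 and 169.6 CPM at 20 min after 7 h, and its changes differed by -8.60 ± 0.36 (adjusted p = 2.89e-27, edgeR). HXT1 had 525 and 612 CPM at 20 min after 1 h, against 2.67 and 2.65 CPM at 20 min after 7 h. Its changes differed by 6.06 ± 0.49 (adjusted p = 5.9e-16, edgeR). The RNA-seq libraries at 20 min after 7 h held 1225780 and 414983 counts, so these low HXT1 values rest on few reads. SRX1 had 4.43 and 7.86 CPM at 20 min after 1 h, against 2415 and 2141 CPM at 20 min after 7 h, with a difference of -8.86 ± 0.30 (adjusted p = 3.1e-31).

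**Figure D5:**
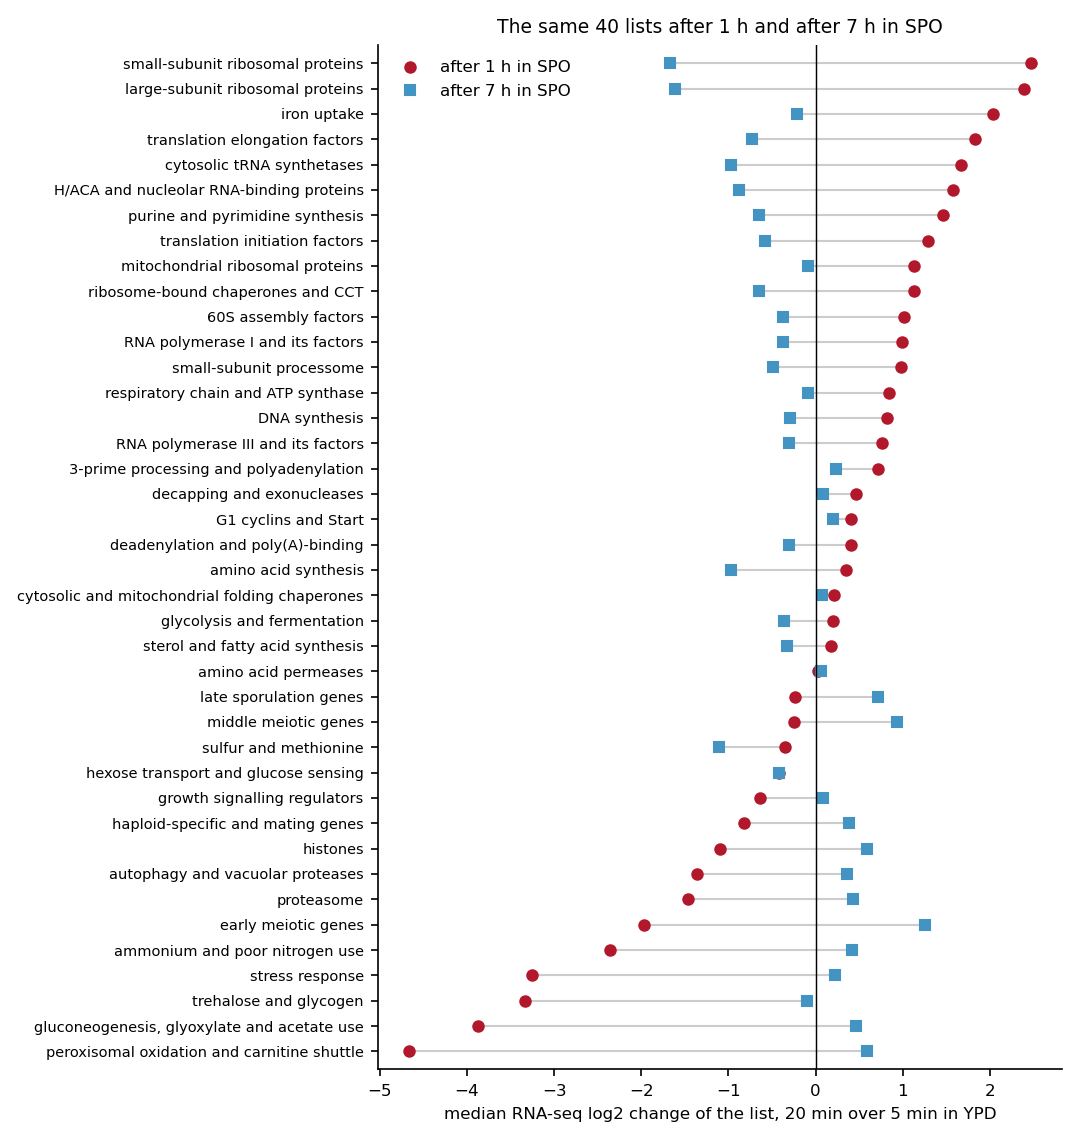
Median log2 RNA-seq change, 20 against 5 min in YPD, of 40 gene lists after 1 h in SPO (points) and after 7 h in SPO (squares), 2 libraries per group. Large-subunit ribosomal protein genes stand at 2.40 after 1 h and -1.61 after 7 h, and gluconeogenic genes at -3.88 and 0.47.

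Tails differed between the arms as well. Of 1665 genes with at least 20 tags in all 8 libraries, the change from 5 to 20 min was more positive after 1 h for 179 (10.8%) and more negative for 168 (10.1%) by limma, with a median difference of 2.85 nt. Of 136 ribosomal protein genes 72 had a more negative change after 1 h and 1 a more positive one (median difference -13.0 nt). Their median tail after 7 h was 22.1 and 24.2 nt at 0 min, 30.0 and 27.8 nt at 5 min, and 25.7 and 33.1 nt at 20 min, so the peak of 47.0 and 46.3 nt at 5 min after 1 h had no counterpart of that size. Of 31 respiratory genes 18 had a more positive change after 1 h and none a more negative one (median difference 10.4 nt). Leaving out 1 of the 8 libraries gave 47 (without replicate 1 at 5 min after 7 h) to 236 (without replicate 2 at 20 min after 1 h) more positive, and 92 (without replicate 2 at either time after 7 h) to 208 (without replicate 1 at 20 min after 7 h) more negative, and each library changed at least 1 of the counts by over 1.5 times.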

How the data were processed

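RNA-seq and poly(A) tags (mPAT-seq) were measured in WT SK1 cells, and groups were taken from the sample titles. The authors deposited raw counts for both assays, reads for RNA-seq and tags for mPAT-seq, with no normalization. The deposited tail lengths are means over the tags of a gene in each library, in nt and unscaled, and mean times tag count was whole for every value within 1e-06. Tag libraries used poly(A)-selected, fragmented RNA with a ligated 3' adapter, per the labels' protocols. The submitters' processing notes name STAR 2.5.3a, bedtools 2.26.0, edgeR and sacCer3. The sources used here do not give the calling of tail ends, any deduplication or the strand of counting, so overlapping genes are uncertain too.

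Of 6692 genes, 6008 matched the reference annotation (R64). Counts were tested with edgeR 4.0.16 in R 4.3.3 (quasi-likelihood F test, TMM, filterByExpr, 1 model of group means over the 12 libraries per assay), and empty cells were read as 0 tags, since the smallest listed count was 1. Tail lengths were tested with limma 3.58.1 (robust, variance trend on log2 tags) where all 4 libraries compared had at least 20 tags. A library of another time with under 20 tags for a gene was left out for that gene. CPM use TMM-scaled totals and SE come from the fits. A gene changed where its Benjamini-Hochberg p, adjusted over all genes, was under 0.05. Scripts were tested on simulated data. Genes were named by a rule: the 12 largest changes in each direction among changed genes with at least 50 CPM and no overlap, the 6 most abundant in each direction, the 2 largest changes per list and direction, the 10 longest and 10 shortest tail changes, the 6 largest differences from the step after 7 h in each direction, and a few regulators. The gene lists, the members and this rule were chosen with earlier results of these data known. Alternatives were the scaling, filter, tag minimum, tail scale, replicate block, libraries left out, fewer libraries in the fit and DESeq2 1.42.0. Leaving out the shallowest library, after 7 h at 0 min, was chosen after seeing the data. Deviations of same-numbered libraries from their group means had correlations across genes of -0.067 to 0.084. Such correlations cannot show a shift shared by all genes of a library. The median tail of replicate 1 was above that of replicate 2 at both times after 1 h. It was 31.0 against 28.2 nt at 20 min, and 29.0 against 26.4 nt at 5 min. With 2 libraries per group these values cannot tell whether same-numbered libraries share a culture. No replicates were duplicates of each other. Windows were read with Python 3.11.15.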

Additional observations from a re-analysis of the deposited data

Results flagged for a closer look

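The difference between the step after 1 h and the step after 7 h in SPO was tested by an interaction term and was larger than the spread between libraries for many genes. In RNA-seq counts it was positive for 2031 genes and negative for 1682, in tag counts positive for 1077 and negative for 980, and in tail length positive for 179 and negative for 168. The largest positive log2 differences by the naming rule were 8.49 for YMR321C, 6.06 for HXT1, 5.66 for SAM4, and 5.04 for each of RPL17B, RPS22A and ASC1. The largest negative ones were -10.42 for PHO92, -9.08 for CIT3, -8.86 for SRX1, -8.61 for LEE1, -8.60 for DMC1 and -8.34 for PDH1. PHO92 had no count at 20 min after 1 h and LEE1 a single count, so their fitted differences depend on the prior count. HXT1 rested on few reads at 20 min after 7 h.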

How the results depend on the processing

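Of the RNA-seq counts after 1 h, library sizes alone gave 985 higher and 2960 lower genes and DESeq2 gave 1676 higher, against 2516 higher and 1647 lower. Library sizes alone gave 588 higher and 1840 lower genes by tags, and 1184 positive differences from 7 h. Shorter tails numbered 488 after centring on library medians and 176 on a log2 scale. Positive tail differences from 7 h numbered 114 with 50 tags and 98 after centring, and negative ones 380 after centring and 91 on a log2 scale. With 1 library left out the ranges were 32 to 134 longer and 133 to 235 shorter tails, and 47 to 236 and 92 to 208 for the difference. The library median difference was -0.831 nt as a mean over genes, 4.65 nt weighted by tags, and 0.448 to 3.97 nt with 1 library left out. With library sizes alone list medians reversed for glycolysis (-0.53), folding chaperones (-0.52), G1 (-0.33), amino acid synthesis (-0.38), permeases (-0.70, and -0.077 with RLE factors), sterol and fatty acid synthesis (-0.55), deadenylation (-0.34), decapping (-0.27) and 3′-end processing (-0.025). So did the genes CCR4 (-0.14), ATG9 (-0.12), GCN4 (-0.030), PAN2 (-0.44), NSR1 (-0.16), OST1 (-0.13), POP2 (-0.27), GDH1 (-0.15), FIT3 (-0.54), NEW1 (-0.68) and PUF2 (-0.54). Centring reversed the median tail changes of growth signalling (-1.61 nt) and sterol genes (-1.66 nt). The alternative scaling and centring shift all genes by construction, and the cause of the other moves was not tested. The replicate block gave 2518 higher and 1657 lower genes, and 123 longer and 268 shorter tails. Leaving out the shallowest library, chosen after seeing the data, gave 2523 and 1656. Of the tested values of single genes, 1986 RNA-seq values kept their side of the threshold, 72 lost the call and 12 gained it. For tails 837 kept their side, 98 lost the call and 33 gained it. Values that kept a call kept its direction, but a change of sign without a call in either fit counts as kept. Depth limited the tail test to 1964 of 6692 genes.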

Other observations

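Of 28 sterol and fatty acid genes 11 were higher at 20 min and 11 lower, beside 41.2% higher and 27.0% lower over all genes, and with library sizes alone 8 were higher and 15 lower. ELO2, a fatty acid elongase, had 373 and 385 CPM at 20 min, against 104 and 89.8 CPM at 5 min, a log2 change of 1.97 ± 0.17 (adjusted p = 4.56e-15, edgeR), and its tails were 35.2 and 29.3 nt at 20 min, against 47.8 and 47.6 nt at 5 min (-15.4 ± 3.53 nt, adjusted p = 0.00679, limma). HMG2, an HMG-CoA reductase isozyme, had 34.9 and 35.1 CPM at 20 min, against 204 and 171 CPM at 5 min, a log2 change of -2.42 ± 0.18 (adjusted p = 8.91e-18). ERG10, the acetyl-CoA acetyltransferase of the first step, had 73.2 and 82.2 CPM at 20 min, against 354 and 362 CPM at 5 min, a log2 change of -2.19 ± 0.16 (adjusted p = 7.76e-18).

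Other genes named for their abundance or the size of their change follow. PMA1, the plasma membrane proton pump, had 6527 and 6435 CPM at 20 min, against 2999 and 2606 CPM at 5 min, a log2 change of 1.21 ± 0.17 (adjusted p = 8.01e-09, edgeR). CCW12, a cell wall mannoprotein, had 7768 and 6925 CPM at 20 min, against 2948 and 1923 CPM at 5 min, a log2 change of 1.59 ± 0.18 (adjusted p = 2.04e-11). HPF1, a glucan-associated mannoprotein, had 1152 and 1018 CPM at 20 min, against 4006 and 3251 CPM at 5 min, a log2 change of -1.74 ± 0.17 (adjusted p = 3.99e-13). VTC3, a subunit of the vacuolar polyphosphate polymerase, had 1481 and 1322 CPM at 20 min, against 145 and 172 CPM at 5 min, a log2 change of 3.14 ± 0.16 (adjusted p = 1.59e-24).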
